A study of Homo sapiens with 24 samples.

Results

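Matrix metalloproteinases (MMPs), the tissue inhibitors of metalloproteinases (TIMPs) and the ADAMTS proteases were followed as a set of 47 genes. The set holds every entry of the count files whose symbol is MMP or ADAMTS with a number (MMP23A and MMP23B included) or TIMP1 to TIMP4. It comprises 24 MMP, 4 TIMP and 19 ADAMTS genes out of 58735 entries. Polyadenylated RNA had been sequenced from the breast cancer cell lines HCC1395, HCC38 and HCC1937, in 8 groups of 3 libraries. In each line cells received either DMSO, the solvent control, or EZH2i+AKTi, that is 5 uM tazemetostat (EZH2i, an inhibitor of the histone H3 lysine 27 methyltransferase EZH2) with 5 uM ipatasertib (AKTi, an inhibitor of the AKT kinases). HCC1395 also received each inhibitor alone at the same dose. The labelled treatment schedule names another line and another assay, so the exposure time of these cells is not clear. The labels do not say whether replicates are separate cultures; the p-values rest on the spread between these libraries, which may be only technical.

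MMPs are zinc endopeptidases that are made as inactive proenzymes and cleave collagens, gelatin, laminins, growth factors and cell surface receptors. TIMPs are small secreted proteins that block the active site of MMPs, and TIMP3, which binds to the matrix, also inhibits several ADAM and ADAMTS proteases. ADAMTS proteases are secreted zinc enzymes with thrombospondin repeats, and their substrates include large proteoglycans such as aggrecan and versican, procollagen propeptides and von Willebrand factor. In breast tumours many MMPs are made by stromal and inflammatory cells, while cultured carcinoma cells make a narrower set of their own.

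Library totals ran from 33469927 to 51815656 counts. Levels are given as CPM, the gene's count relative to its library's total, adjusted by TMM (trimmed mean of M-values) over the 24 libraries. The epithelial marker list of 8 genes summed to 5622 to 6264 CPM in the HCC38 DMSO libraries and to 9483 to 10190.0 CPM in those of HCC1937, but to only 514 to 535 CPM in those of HCC1395. In HCC1395 under DMSO, 6 of the 8 epithelial markers reached 1 CPM, and the keratin KRT14 was the largest. EPCAM and CDH1, of the same list, were at 1.75 and 0.347 CPM in HCC1395 under DMSO. VIM, an intermediate filament of mesenchymal cells, was at 1529 CPM. The summed fibroblast list (9 genes) stood at 790.0 to 810.1 CPM there, against 25.5 to 26.9 in HCC38 and 19.4 to 21.1 in HCC1937, and most of the HCC1395 sum was COL1A2. The fibroblast markers DCN, LUM and COL3A1 were each below 1 CPM in every group. Leukocyte and macrophage markers (8 genes) summed to at most 18.2 CPM in any library. The endothelial list (5 genes) summed to 35.9 to 38.8 CPM in the HCC1937 DMSO libraries and to 66.5 to 71.2 CPM in the treated ones, and stayed at or below 4.58 CPM in the other lines. As a share of counts, mitochondrial transcripts also moved with treatment, from 3.85% ± 0.0797 (SD, n = 3) to 6.2% ± 0.0852 in HCC1395 and from 5.77% ± 0.843 to 7.45% ± 0.96 in HCC1937. In HCC38 the treated library C was at 7.77%, apart from the treated libraries A and B (4.76% and 5.19%) and from DMSO (5.56% ± 0.413). The part of these shifts in the results was not tested.

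Of the 47 genes, 35 reached 1 CPM in at least 1 group. The other 12 were ADAMTS8, ADAMTS18, ADAMTS19, ADAMTS20, MMP8, MMP10, MMP12, MMP21, MMP23A, MMP23B, MMP26 and MMP27. MMP26 had no count in any library, and the other 11 had at most 34 counts in a library. After the low-count filter HCC1395 had 33 tested members, HCC38 had 32, HCC1937 had 29 and the joint fit of all lines had 38, and 22 were tested in all 3 single-line fits. A member can pass that filter through the group in which it is high, so the counts of called members below describe those tested and support no statement about the families as wholes.

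The upstream sequences of a few members are shown as examples of start-site types in the set, both CpG-rich windows and TATA-containing ones. TIMP3, MMP24 and ADAMTS7 are among the members that rose under treatment, as MMP7 did in HCC1937. MMP7 and MMP20 lie in the run of 9 MMP genes on chromosome 11 and were high in 1 or 2 lines. Each window is the 250 bases before the start site from RefSeq (GRCh38.p14), read 5′ to 3′ on the gene's strand. Capitals mark TGANTCA, a looser form of the AP-1 consensus, and TATAAA on the gene's strand. In TGANTCA the letter N is any base, so the pattern covers both strands. The coordinates are TIMP3 chr22:32801455-32801704 (plus strand), MMP24 chr20:35226440-35226689 (plus), ADAMTS7 chr15:78811465-78811714 (minus), MMP7 chr11:102530748-102530997 (minus) and MMP20 chr11:102625333-102625582 (minus).
TIMP3 upstream window: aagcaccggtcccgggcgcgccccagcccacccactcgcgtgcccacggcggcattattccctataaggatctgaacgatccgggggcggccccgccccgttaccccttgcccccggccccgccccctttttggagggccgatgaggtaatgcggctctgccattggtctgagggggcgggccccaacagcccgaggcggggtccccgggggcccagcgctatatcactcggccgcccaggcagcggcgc
MMP24 upstream window: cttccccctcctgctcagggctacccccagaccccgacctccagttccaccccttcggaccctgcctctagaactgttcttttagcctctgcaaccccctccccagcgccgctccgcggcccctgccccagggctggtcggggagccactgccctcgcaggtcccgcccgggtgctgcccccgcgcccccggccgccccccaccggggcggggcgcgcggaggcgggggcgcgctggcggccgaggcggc
ADAMTS7 upstream window: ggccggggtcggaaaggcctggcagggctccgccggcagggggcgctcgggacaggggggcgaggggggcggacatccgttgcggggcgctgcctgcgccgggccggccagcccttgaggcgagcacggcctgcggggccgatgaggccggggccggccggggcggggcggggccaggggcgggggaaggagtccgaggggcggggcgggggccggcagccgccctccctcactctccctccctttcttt
MMP7 upstream window: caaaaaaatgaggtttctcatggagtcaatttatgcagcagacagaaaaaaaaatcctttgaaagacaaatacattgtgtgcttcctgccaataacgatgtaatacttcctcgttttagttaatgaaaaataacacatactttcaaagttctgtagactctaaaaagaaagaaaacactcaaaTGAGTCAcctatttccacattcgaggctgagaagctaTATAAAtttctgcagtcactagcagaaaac
MMP20 upstream window: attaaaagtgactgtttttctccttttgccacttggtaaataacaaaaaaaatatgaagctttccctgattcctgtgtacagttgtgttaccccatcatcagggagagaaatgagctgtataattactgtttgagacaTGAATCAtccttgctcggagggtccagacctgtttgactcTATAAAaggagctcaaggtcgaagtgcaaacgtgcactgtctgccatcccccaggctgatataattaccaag
The windows of TIMP3, MMP24 and ADAMTS7 had observed to expected CpG ratios of 0.802, 0.697 and 0.743, against a median of 0.558 over 35116 promoters. Those of MMP7 and MMP20 had ratios of 0.429 and 0.277. ADAMTS14, which fell with both inhibitors in HCC1395 and HCC1937, had a ratio of 0.921. Window type was not tested against response. MMP7 held TGANTCA starting 67 bases and TATAAA starting 30 bases before the start site, and MMP20 held them at 112 and 72 bases. The first match read TGAGTCA in MMP7 and TGAATCA in MMP20, whose central base is outside the usual AP-1 consensus. TGANTCA occurred in 6.57% and TATAAA in 6.8% of all promoter windows of this length. None of these letters, and no GTAAACA (the forkhead consensus, searched on both strands, in 2.98% of windows), was found in the other 3 windows shown. RefSeq windows were matched for 27 of the 47 members.

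Under DMSO the 3 lines differed in which inhibitors and proteases they made. HCC1395 had high TIMP3, TIMP2, MMP2 and MMP14, HCC38 had TIMP1 first and almost no TIMP3, and HCC1937 had TIMP3 with almost no MMP2 or MMP14. Set per kilobase of exon, so that genes can be compared, TIMP3 led HCC1395 with 184 CPM per kb, followed by TIMP2 (137), MMP2 (75.5), TIMP1 (63.4) and MMP14 (52.04). In HCC38 the order was TIMP1 (98.03 CPM per kb), TIMP2 (28.6), MMP2 (18.4), MMP7 (10.6) and MMP14 (9.55). HCC1937 began with TIMP3 (124 CPM per kb), TIMP1 (72.7) and TIMP2 (56.8), and the leading protease, MMP28, followed at 12.2. MMP28, or epilysin, is a secreted MMP of epithelia.

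**Figure D1:**
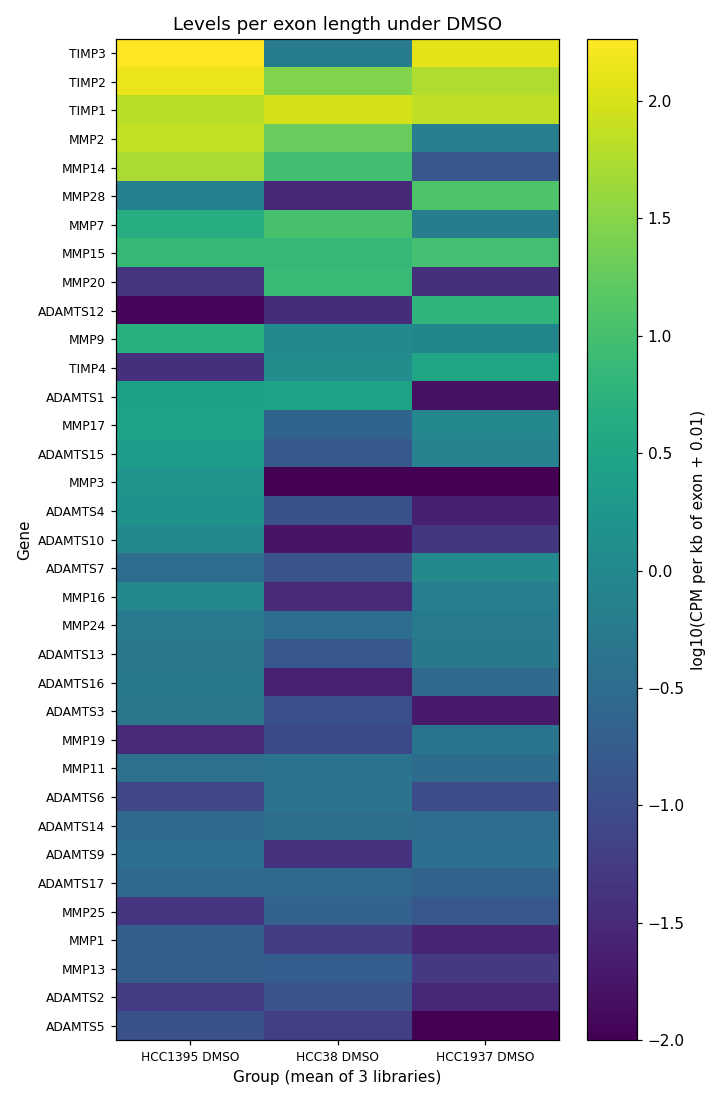
Mean level per kilobase of exon under DMSO (log10 of CPM per kb plus 0.01, colour scale) for members reaching 1 CPM in any group (rows) in the 3 lines (columns, means of 3 libraries). TIMP1 and TIMP2 were high in each line, whereas TIMP3 was low in HCC38 and MMP2 and MMP14 were low in HCC1937.

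Of 38 members tested, 9 were higher and 21 lower in HCC38 than in HCC1395 under DMSO (edgeR, adjusted p under 0.05), while 38.2% and 36.5% of all tested genes were called in those directions. In HCC1937 against HCC1395, 9 were higher and 22 lower, beside 37.3% and 35.7% of all genes. In HCC1937 against HCC38 the counts were 17 and 16, beside 36.2% and 35.6%. The median log2 difference of the members was -1.26, -0.70 and -0.07 in the 3 comparisons, with medians of all genes of 0.02, 0.01 and 0.00. In bulk RNA, fewer cells making a transcript and less transcript per cell cannot be told apart, which holds for every level given here.

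TIMP3 was at 3.19, 2.24 and 3.36 CPM in the HCC38 DMSO libraries, against 834, 825 and 878 in HCC1395 and 580.5, 578 and 559.7 in HCC1937. The log2 difference of HCC38 from HCC1395 was -8.17 ± 0.11 (adjusted p = 3.4e-30); errors of log2 values are standard errors of the fit throughout. MMP2, the gelatinase that MMP14 activates at the cell surface, was at 370.3, 367 and 381 CPM in HCC1395, 89.1, 89.9 and 93.8 in HCC38 and 3.27, 3.72 and 2.85 in HCC1937. MMP14, the main membrane-type MMP, followed the same order, with 225, 239 and 233 CPM in HCC1395, 39.7, 43.96 and 44.2 in HCC38 and 0.553, 0.639 and 0.604 in HCC1937. The log2 differences of HCC1937 from HCC1395 were -6.83 ± 0.10 (adjusted p = 2.28e-29) for MMP2 and -8.59 ± 0.15 (adjusted p = 2.1e-28) for MMP14. No 2 lines overlapped in either gene. TIMP1 varied least of the inhibitors, with means of 97.8 ± 4.71 CPM (SD, n = 3) in HCC1395, 112 ± 6.47 in HCC1937 and 151 ± 13.6 in HCC38. TIMP2 had 769 ± 7.58, 320.1 ± 14.1 and 161 ± 3.31 CPM in the same order.

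Several members were high in a single line. MMP20, or enamelysin, an MMP known from tooth enamel, was at 20.8, 19.3 and 19.3 CPM in HCC38 and at no more than 0.139 CPM in a DMSO library of the other lines. ADAMTS12, which like ADAMTS7 cleaves cartilage oligomeric matrix protein, was at 54.9, 58.5 and 64.5 CPM in HCC1937, 0.249 in HCC38 and 0.0188 in HCC1395. MMP28 was likewise at 39.6, 33.3 and 31.9 CPM in HCC1937, against means of 1.94 in HCC1395 and 0.0588 in HCC38. The reverse held for ADAMTS1, a versican-cleaving protease, with means of 18.5 ± 0.345 CPM in HCC1395 and 20.6 ± 1.57 in HCC38, whose difference did not pass the test (log2 difference 0.16 ± 0.11, adjusted p = 0.196), and 0.0387 in HCC1937. MMP3, or stromelysin 1, had 134, 129 and 106 counts in the HCC1395 DMSO libraries and none in those of HCC38 or HCC1937. Set against 3 counts over the group, it was at least 118-fold higher in HCC1395 than in HCC38 and at least 153-fold higher than in HCC1937. ADAMTS5, an aggrecanase, had no count in HCC1937 and was at least 42.6-fold higher in HCC1395 and 21.8-fold higher in HCC38. ADAMTS4, the other main aggrecanase, had means of 16.02 ± 0.226 CPM in HCC1395, 1.09 ± 0.119 in HCC38 and 0.137 in HCC1937. These bounds cover counting error only.

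A run of 9 MMP genes lies side by side on the minus strand of chromosome 11 (hg38 102520508 to 102955734, GENCODE 29), in the order MMP7, MMP20, MMP27, MMP8, MMP10, MMP1, MMP3, MMP12 and MMP13. MMP7, or matrilysin, was highest in HCC38 (23.3, 27.1 and 23.3 CPM) and next in HCC1395 (11.4, 10.5 and 9.76), and its neighbour MMP20 was also highest in HCC38. MMP3 was counted in HCC1395 alone under DMSO, and MMP1, MMP8, MMP10, MMP12 and MMP27 were each below 1 CPM in all DMSO groups. MMP13, at the other end, had means of 0.518, 0.502 and 0.117 CPM in HCC1395, HCC38 and HCC1937.

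The members together took 0.242% ± 0.00325 (SD, n = 3) of library counts in HCC1395 under DMSO, 0.283% ± 0.00309 with EZH2i, 0.417% ± 0.00107 with AKTi and 0.501% ± 0.0144 with both. With both inhibitors the HCC38 share went from 0.0569% ± 0.0011 to 0.0973% ± 0.00105, and the HCC1937 share from 0.121% ± 0.000513 to 0.25% ± 0.00478. No library of a treated group overlapped its DMSO group. Most of these counts were of TIMP genes. TIMPs made up 69% ± 0.401 of member counts in HCC1395 under DMSO and 75.3% ± 0.389 under both inhibitors, 55.5% ± 1.44 and 63.5% ± 2.55 in HCC38, and 84.2% ± 0.567 and 89.9% ± 0.385 in HCC1937. TIMP3 alone went from 34.1% ± 0.716 to 51.8% ± 1.04 of member counts in HCC1395 and from 47.7% ± 0.845 to 64.5% ± 0.896 in HCC1937.

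**Figure D2:**
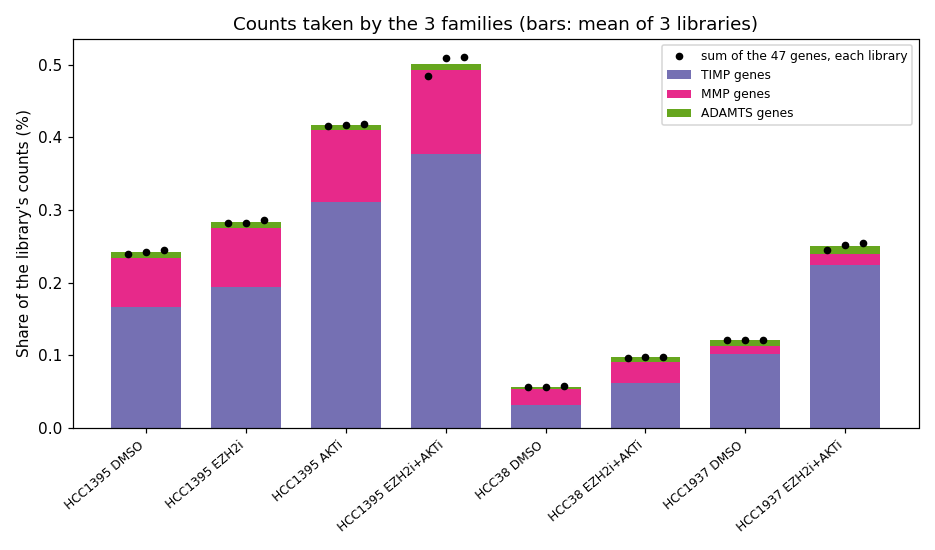
Share of library counts taken by the TIMP, MMP and ADAMTS genes (stacked bars, means of 3 libraries, y axis in percent) in the 8 groups, with points for the sum over the 47 genes in each library. The sum was highest in HCC1395 under both inhibitors, and TIMP genes were the largest part of every bar.

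In HCC1395 both inhibitors together raised inhibitors and proteases side by side: TIMP3 and MMP2, both among the most abundant members, rose with each drug and most with both, MMP13 and ADAMTS7 rose mainly with EZH2i, and ADAMTS4 and MMP3 fell. With both inhibitors 21 members were higher and 6 lower of 33 tested, beside 32.5% of all genes higher and 27.4% lower. EZH2i alone gave 12 higher and 6 lower, beside 18.8% and 14.9%. AKTi alone gave 12 higher and 3 lower, beside 27.1% and 22.6%. The median log2 change of the tested members was 0.18 with EZH2i, 0.12 with AKTi and 0.56 with the pair, and the medians of all tested genes were 0.02, 0.06 and 0.07. At 2-fold or more, 8 members rose with both inhibitors (12.6% of all genes) and 3 fell (2.88%). The 3 comparisons share their DMSO libraries.

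Among the inhibitors, TIMP3 was at 834, 825 and 878 CPM under DMSO, 1124, 1127 and 1116 with EZH2i, 1806, 1760.0 and 1739 with AKTi and 2605, 2594 and 2713 with both. The 4 groups did not overlap and rose in that order. Its log2 change was 0.41 ± 0.05 (adjusted p = 4.13e-07) with EZH2i, 1.06 ± 0.05 (adjusted p = 1.88e-13) with AKTi and 1.63 ± 0.05 (adjusted p = 1.66e-16) with both, a 3.10-fold rise. TIMP3 (chr22:32801701-32863043, plus strand, hg38) lies inside an intron of the neuronal gene SYN3 on the opposite strand, with no shared exon. SYN3 was low, with means of 1.92, 2.31, 8.10 and 11.8 CPM in the same 4 groups.

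TIMP2, which both inhibits MMPs and takes part in MMP2 activation, moved in opposite directions with the 2 drugs. It was at 777, 769 and 762 CPM under DMSO, 708, 699 and 695 with EZH2i, 1344, 1371 and 1362 with AKTi and 1074, 1042 and 1039 with both, and no 2 of these groups overlapped. The log2 changes were -0.13 ± 0.04 (adjusted p = 0.0227), 0.81 ± 0.04 (adjusted p = 3.46e-12) and 0.44 ± 0.04 (adjusted p = 1.54e-08). The fall with EZH2i was small, and its adjusted p ran up to 0.0775 over the alternative settings. Adding EZH2i to AKTi lowered TIMP2 by a log2 change of -0.37 ± 0.04 (adjusted p = 8.87e-07). TIMP1, an inhibitor of most secreted MMPs, had means of 97.8 ± 4.71, 110.3 ± 3.96, 117 ± 6.63 and 143 ± 22.1 CPM, and its change with both was 0.55 ± 0.08 (adjusted p = 2.75e-05). TIMP4 had at most 4 counts in any HCC1395 library.

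**Figure D3:**
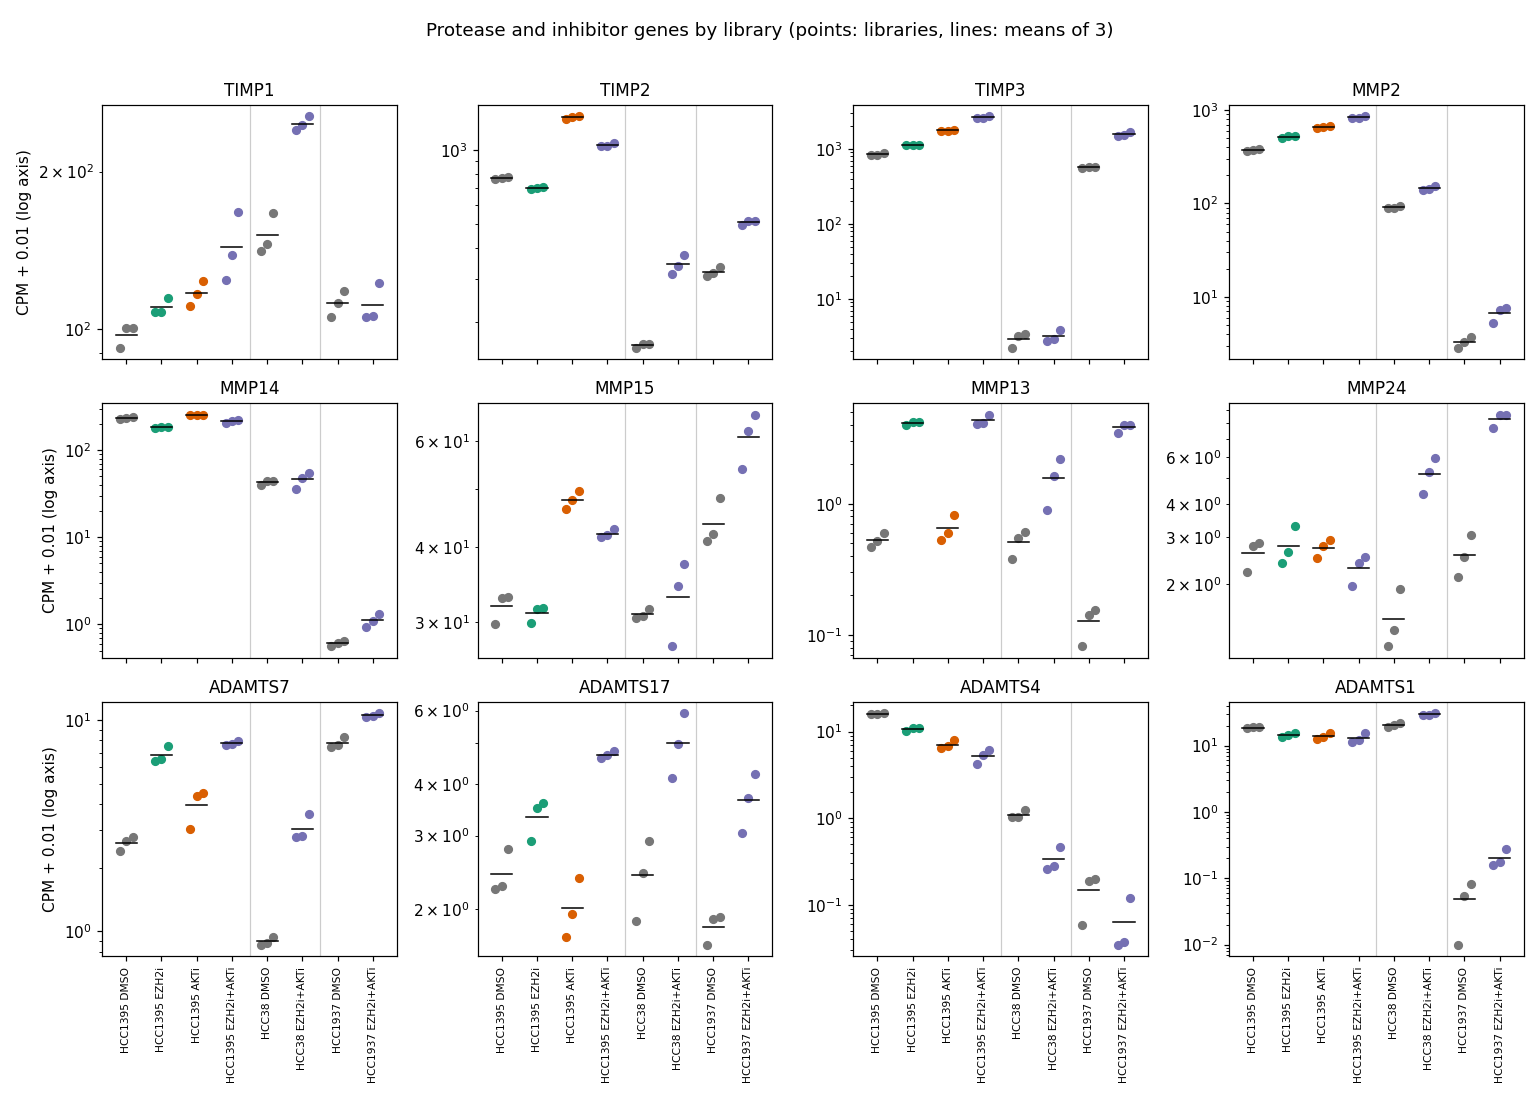
Level (CPM plus 0.01, log axis) of 12 members in each library (points, ordered by value within a group) with the group mean (line), by group. TIMP3 and MMP2 rose step by step over the HCC1395 groups, MMP13 was high in the HCC1395 groups with EZH2i, and TIMP3 stayed low in HCC38.

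Of the gelatinases, MMP2 was at 370.3, 367 and 381 CPM under DMSO, 522, 503 and 529 with EZH2i, 680.2, 647 and 656 with AKTi and 831, 856 and 825 with both. As with TIMP3, the groups were apart and followed this order. The log2 change with both was 1.16 ± 0.04 (adjusted p = 1.51e-14), with 0.48 ± 0.04 for EZH2i and 0.82 ± 0.04 for AKTi. MMP9, the gelatinase also known from neutrophils and macrophages, rose from 11.7 ± 0.729 to 17.2 ± 2.22 CPM with both (log2 change 0.55 ± 0.09, adjusted p = 2.02e-05) and gave -0.10 ± 0.09 with EZH2i alone. Among the membrane-type MMPs, MMP14 fell slightly with EZH2i, from 225, 239 and 233 to 181, 186 and 185 CPM, a log2 change of -0.33 ± 0.05 (adjusted p = 7.24e-06). Its changes with AKTi (0.12 ± 0.04) and with both (-0.12 ± 0.04) were small, and these calls were lost under some alternatives. MMP15, a related membrane-type MMP, rose with AKTi from 31.9 ± 1.79 to 47.8 ± 1.65 CPM (log2 change 0.58 ± 0.06, adjusted p = 4.49e-08). MMP17, which is held by a lipid anchor, rose with EZH2i from 11.2 ± 0.328 to 17.4 ± 1.65 CPM (log2 change 0.64 ± 0.09, adjusted p = 9.99e-06) and gave -0.11 ± 0.09 with AKTi. MMP16 fell with both, by 0.54 on the log2 scale (adjusted p = 0.000382), and MMP24 did not pass the test (log2 change -0.20 ± 0.17, adjusted p = 0.309).

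The collagenase MMP13, which cleaves fibrillar collagen, responded to EZH2i and not detectably to AKTi. It was at 0.457, 0.512 and 0.584 CPM under DMSO and 0.516, 0.584 and 0.816 under AKTi, and at 3.99, 4.15 and 4.18 under EZH2i and 4.14, 4.74 and 4.04 under both. Its 7.93-fold rise with EZH2i was a log2 change of 2.99 ± 0.19 (adjusted p = 1.48e-10), and adding EZH2i to AKTi gave 2.75 ± 0.18 (adjusted p = 3.02e-10). The change with AKTi alone was 0.29 ± 0.24 (adjusted p = 0.35). In counts, the DMSO libraries held 17, 18 and 21 MMP13 reads and the EZH2i libraries 136, 197 and 168. MMP1, the interstitial collagenase, was low but rose with both inhibitors from 0.377, 0.541 and 0.195 to 1.001, 1.39 and 0.629 CPM (log2 change 1.45 ± 0.40, adjusted p = 0.00365). The stromelysin MMP3 fell with EZH2i: it was at 3.61, 3.67 and 2.95 CPM under DMSO, 2.55, 3.27 and 3.48 under AKTi, 1.41, 2.002 and 1.77 under EZH2i and 1.39, 1.10 and 1.53 under both. Its log2 change was -0.96 ± 0.18 (adjusted p = 0.000264) with EZH2i and -1.37 ± 0.18 (adjusted p = 1.8e-06) with both. MMP13 and MMP3, separated on chromosome 11 by MMP12, thus moved in opposite directions under EZH2i. MMP7, in the same run, had a mean of 10.5 CPM under DMSO and 12.7 under both (log2 change 0.26 ± 0.10, adjusted p = 0.0336), a call lost in 6 of 11 alternatives.

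Among the ADAMTS proteoglycanases, ADAMTS4 fell with each drug. It was at 15.8, 16.1 and 16.2 CPM under DMSO, 11.01, 10.2 and 10.9 with EZH2i, 7.95, 6.74 and 6.36 with AKTi and 6.06, 5.37 and 4.22 with both, 4 groups that did not overlap. The log2 changes were -0.58 ± 0.10 (adjusted p = 0.00015), -1.20 ± 0.11 (adjusted p = 8.86e-09) and -1.61 ± 0.11 (adjusted p = 6.73e-11). ADAMTS1 fell in the same way by less, with means of 18.5 ± 0.345, 14.3 ± 0.938, 13.7 ± 1.48 and 13.02 ± 2.19 CPM and a log2 change with both of -0.53 ± 0.10 (adjusted p = 0.000114). ADAMTS15, another proteoglycanase, rose with AKTi from 12.8 ± 0.266 to 19.5 ± 0.210 CPM (log2 change 0.60 ± 0.07, adjusted p = 5.98e-07) and not detectably with EZH2i (-0.16 ± 0.07, adjusted p = 0.109). ADAMTS9, which also cleaves versican and aggrecan, rose with EZH2i from 3.69 ± 0.679 to 6.81 ± 0.713 CPM (log2 change 0.90 ± 0.14, adjusted p = 4.71e-05) but had 3.96 ± 0.590 CPM with both (0.08 ± 0.15, adjusted p = 0.651). ADAMTS5 had means between 0.946 and 1.28 CPM and passed no test in HCC1395.

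Of the 3 procollagen N-proteinases, which trim the amino ends of fibrillar procollagens, 2 rose and 1 fell with both inhibitors. The shares of all genes were 32.5% and 27.4%. ADAMTS3 was at 3.12, 3.64 and 3.48 CPM under DMSO, 7.17, 8.15 and 9.28 under EZH2i and 5.99, 5.95 and 7.52 under both. Its log2 change was 1.27 ± 0.15 (adjusted p = 1.02e-06) with EZH2i and 0.05 ± 0.16 (adjusted p = 0.828) with AKTi. ADAMTS2 rose with both from 0.404, 0.398 and 0.417 to 0.943, 1.001 and 1.53 CPM (log2 change 1.47 ± 0.30, adjusted p = 0.000233). ADAMTS14 fell with both from 1.29, 1.93 and 1.14 to 0.558, 0.593 and 0.359 CPM (log2 change -1.50 ± 0.27, adjusted p = 6.63e-05), and with AKTi by less (-0.75 ± 0.26, adjusted p = 0.0199).

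ADAMTS7 was at 2.77, 2.39 and 2.67 CPM under DMSO, 4.33, 3.05 and 4.51 under AKTi, 6.40, 6.51 and 7.49 under EZH2i and 7.93, 7.68 and 7.58 under both. The log2 changes were 1.38 ± 0.14 (adjusted p = 9.28e-08) for EZH2i, 0.60 ± 0.14 (adjusted p = 0.00168) for AKTi and 1.56 ± 0.13 (adjusted p = 2.92e-09) for both, and AKTi added to EZH2i gave no detectable change (0.17 ± 0.12, adjusted p = 0.247). ADAMTS10, a protease of fibrillin microfibrils, was at 5.33, 6.43 and 6.98 CPM under DMSO and 16.02, 12.97 and 13.9 under both (log2 change 1.19 ± 0.11, adjusted p = 9.15e-09). ADAMTS17, related to ADAMTS10, was at 2.77, 2.22 and 2.25 CPM under DMSO, 2.91, 3.48 and 3.58 with EZH2i, 1.70, 2.36 and 1.93 with AKTi and 4.79, 4.60 and 4.67 with both. Adding EZH2i to AKTi raised it by a log2 change of 1.23 ± 0.15 (adjusted p = 1.86e-06). ADAMTS13, the von Willebrand factor protease, rose from 2.79 ± 0.344 to 5.40 ± 0.840 CPM with both (log2 change 0.95 ± 0.14, adjusted p = 4.68e-06), and ADAMTS16 from 2.99 ± 0.334 to 5.82 ± 0.965 CPM (0.94 ± 0.15, adjusted p = 1.29e-05).

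**Figure D4:**
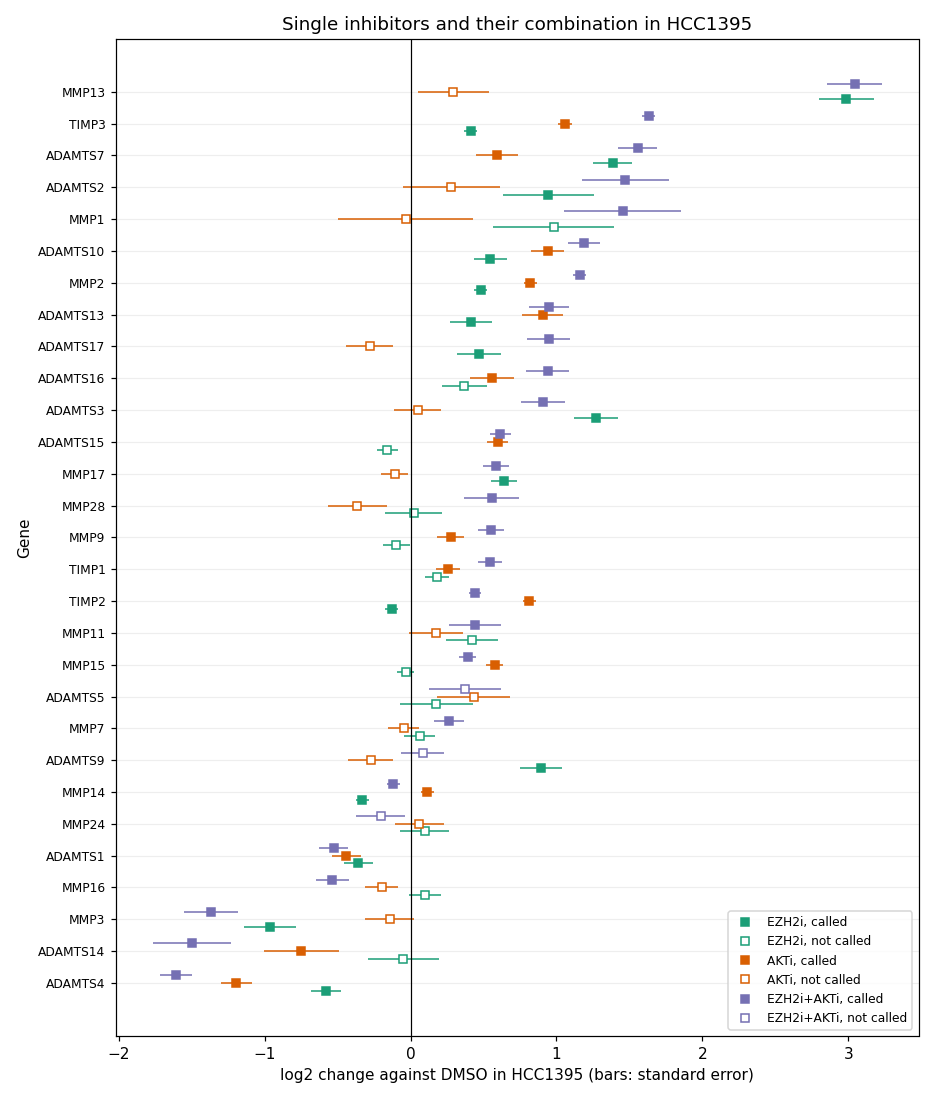
Log2 change against DMSO in HCC1395 (x axis, bars are standard errors) for each tested member reaching 1 CPM (rows), under EZH2i, AKTi and both, with filled symbols for edgeR adjusted p under 0.05. MMP13 moved with EZH2i and both but not detectably with AKTi, and ADAMTS4 lay below 0 under all 3 treatments.

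Each single drug was also set against the combination. AKTi added to EZH2i changed 13 members upwards and 5 downwards, beside 23.9% and 25.1% of all genes. EZH2i added to AKTi changed 15 upwards and 7 downwards, beside 17% and 18.6%. TIMP3 and MMP2 rose in both of these steps, by log2 changes of 1.22 ± 0.05 and 0.68 ± 0.04 when AKTi was added and of 0.57 ± 0.05 and 0.34 ± 0.04 when EZH2i was added. The interaction, that is the change with both less the sum of the single changes, was called below 0 for 1 of 33 members and above 0 for none, beside 1.06% and 0.526% of all genes. Above 0, 4 members had an unadjusted p under 0.05 in edgeR, and DESeq2 called 2. The member called below 0 was TIMP2, with an interaction of -0.24 ± 0.06 (adjusted p = 0.0446). This call was lost under other scaling, without the low-count filter, with a replicate block and without DMSO library A. For TIMP3 the interaction was 0.16 ± 0.06 (adjusted p = 0.259), for MMP2 -0.14 ± 0.06 (adjusted p = 0.323) and for MMP13 -0.23 ± 0.28 (adjusted p = 0.8). The log2 changes of these 3 genes with both drugs thus did not differ detectably from the sum of the single ones.

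With both inhibitors, 5 of the 22 members tested in every line rose in all 3: MMP2, MMP13, TIMP2, ADAMTS7 and ADAMTS17. Over all genes tested in every line, 7.8% rose in all 3. No member fell in all 3, and 7.34% of all genes did; 0 members did so at an unadjusted p under 0.05 in edgeR, and 0 in DESeq2 at an adjusted p under 0.05. In HCC38, 15 of 32 tested members were higher and 2 lower, beside 16.8% and 14.5% of all genes. Without the treated HCC38 library C, 19 were higher and 2 lower of 34 tested. In HCC1937, 17 of 29 were higher and 3 lower, beside 30.5% and 28.8%. The median member changed by 0.58 on the log2 scale in HCC38 and 0.48 in HCC1937, and the median gene by -0.01 and 0.03. Markers of cell state moved with the same treatment. Of the epithelial markers, 5 were higher and 1 lower of 8 tested in HCC1395, 1 was higher and 4 lower of 7 tested in HCC38 and 1 was higher and 6 lower of 8 tested in HCC1937. Their sums under both inhibitors were 692 to 818, 4701 to 6129 and 12460.0 to 13740.0 CPM in the 3 lines, led by KRT14 in HCC1395 and KRT7 in the others. Of 4 mesenchymal markers, 3 were higher in HCC38 (median log2 change 1.15), 1 was higher and 2 lower in HCC1395, and 2 were higher and 1 lower in HCC1937. Their part in the changes of the members was not tested.

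MMP2 rose in HCC38 from 89.1, 89.9 and 93.8 to 152, 143 and 139 CPM (log2 change 0.64 ± 0.09, adjusted p = 0.000513). In HCC1937 it rose from 3.27, 3.72 and 2.85 to 7.65, 5.28 and 7.24 CPM (1.03 ± 0.15, adjusted p = 2.96e-05), so that it stayed far below the HCC1395 level. MMP13 rose in HCC38 from 0.371, 0.599 and 0.536 to 0.881, 1.62 and 2.19 CPM (1.60 ± 0.36, adjusted p = 0.00744) and in HCC1937 from 0.0721, 0.132 and 0.146 to 3.47, 3.995 and 3.99 CPM (4.98 ± 0.25, adjusted p = 3.75e-10). The HCC1937 DMSO libraries held only 3, 6 and 7 MMP13 counts, so the size of that change is loosely fixed. MMP13 libraries did not overlap between DMSO and treatment in any line.

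TIMP2 rose in HCC38 from 162, 163 and 157 to 314, 338 and 376 CPM (log2 change 1.06 ± 0.09, adjusted p = 3.18e-05) and in HCC1937 from 308, 336 and 317 to 512, 498 and 516 CPM (0.67 ± 0.05, adjusted p = 6.9e-08). The rise was larger in HCC38 than in HCC1395 by 0.64 ± 0.08 (adjusted p = 4.67e-07) on the log2 scale. TIMP2 shares 198 bases of exon with CEP295NL on the same strand, so some reads could belong to either. CEP295NL was low, with means of 0.61 and 0.87 CPM in HCC38 and 0.40 and 0.52 in HCC1937. ADAMTS7 rose in HCC38 from 0.856, 0.928 and 0.875 to 2.81, 3.56 and 2.77 CPM (1.75 ± 0.19, adjusted p = 0.00012) and in HCC1937 from 8.32, 7.42 and 7.60 to 10.4, 10.7 and 10.3 CPM (0.43 ± 0.09, adjusted p = 0.000925). Reads could be split between ADAMTS7 and its pseudogene copies. In HCC38 the copy ADAMTS7P4 had means of 0.278 CPM under DMSO and 0.299 under both, against 0.886 and 3.05 for ADAMTS7, so the HCC38 values of ADAMTS7 are uncertain. ADAMTS7P4 was below 0.1 CPM in the other lines, as ADAMTS7P1 and ADAMTS7P3 were in each line. ADAMTS17 rose in HCC38 from 1.85, 2.90 and 2.43 to 5.90, 4.98 and 4.12 CPM (1.03 ± 0.20, adjusted p = 0.00362) and in HCC1937 from 1.88, 1.63 and 1.89 to 3.04, 4.22 and 3.69 CPM (1.02 ± 0.16, adjusted p = 7.66e-05). The response of ADAMTS17 did not differ detectably between any 2 lines, with differences from 0.05 to 0.11 on the log2 scale.

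TIMP3 set HCC38 apart. It rose in HCC1937 from 580.5, 578 and 559.7 to 1503, 1556 and 1687 CPM (log2 change 1.46 ± 0.06, adjusted p = 3.01e-11), beside 1.63 ± 0.05 in HCC1395. In HCC38 it was at 3.19, 2.24 and 3.36 CPM under DMSO and 2.77, 3.85 and 2.96 under both (0.09 ± 0.20, adjusted p = 0.754). The response in HCC38 was lower than in HCC1395 by 1.51 ± 0.14 on the log2 scale (adjusted p = 1.78e-09), and that of HCC1937 did not differ detectably from that of HCC1395 (-0.18 ± 0.11, adjusted p = 0.268). SYN3, its host gene, went from 0.325 to 3.13 CPM in HCC1937 and had 0 and 3 counts in the DMSO and treated groups of HCC38. TIMP1 rose in HCC38 from 146, 167 and 141 to 255, 239.9 and 245 CPM (0.68 ± 0.10, adjusted p = 0.000613), while in HCC1937 it had means of 112 ± 6.47 and 111 ± 9.59 (-0.01 ± 0.07, adjusted p = 0.885). TIMP4, an inhibitor known from heart muscle, fell in HCC1937 from 4.83, 5.17 and 6.37 to 2.74, 2.96 and 3.49 CPM (-0.83 ± 0.15, adjusted p = 0.000161). All 4 inhibitors were called as differing in their response between HCC38 and HCC1937, beside 17.7% of all genes higher and 14.3% lower. HCC38 less HCC1937 was 0.72 ± 0.12 for TIMP1, 0.42 ± 0.08 for TIMP2, -1.34 ± 0.14 for TIMP3 and 0.81 ± 0.30 for TIMP4 on the log2 scale (adjusted p from 2.36e-08 to 0.0389).

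MMP24, a membrane-type MMP known from neurons, rose in HCC38 and HCC1937 but not detectably in HCC1395. It was at 1.34, 1.17 and 1.92 CPM under DMSO and 5.90, 5.27 and 4.35 under both in HCC38 (log2 change 1.78 ± 0.21, adjusted p = 0.000189). In HCC1937 it went from 2.12, 3.04 and 2.52 to 8.58, 8.58 and 7.66 CPM (1.68 ± 0.14, adjusted p = 5.91e-08). The responses exceeded that of HCC1395 by 2.00 ± 0.26 (adjusted p = 4.89e-07) in HCC38 and 1.88 ± 0.24 (adjusted p = 5.74e-07) in HCC1937. MMP24 shares 799 bases of exon with MMP24OS on the opposite strand, and reads of the pair cannot be told apart if strand was not used. MMP24OS had means of 10.7 and 11.3 CPM in HCC38 (0.05 ± 0.15, adjusted p = 0.837) and 30.9 and 50.9 in HCC1937 (0.72 ± 0.11, adjusted p = 9.33e-05). In HCC1395 it was highest, with 58.6 and 58.1 CPM (-0.02 ± 0.06, adjusted p = 0.758). Reads of MMP24OS counted for MMP24 could mask a change of MMP24 there. In HCC1937, where MMP24OS also rose, such reads could be part of the MMP24 rise. Neither was tested. Of the other membrane-type MMPs, MMP25 rose in both lines, from 0.827, 0.838 and 0.931 to 1.49, 1.69 and 1.55 CPM in HCC38 (0.83 ± 0.20, adjusted p = 0.0108) and from 0.529, 0.440 and 0.708 to 1.03, 1.55 and 1.37 in HCC1937 (1.23 ± 0.26, adjusted p = 0.000914). It shares 1454 bases of exon with MMP25-AS1 on the opposite strand. MMP14 in HCC38 was at 39.7, 43.96 and 44.2 CPM under DMSO and 55.2, 47.95 and 35.7 under both (0.09 ± 0.15, adjusted p = 0.683). Treated libraries A and B thus lay above DMSO and library C below. In HCC1937 MMP14 rose from 0.553, 0.639 and 0.604 to 1.09, 1.31 and 0.916 CPM (0.87 ± 0.25, adjusted p = 0.00759). MMP15 rose in HCC1937 from 43.7 ± 3.95 to 60.9 ± 6.27 CPM (0.48 ± 0.08, adjusted p = 0.000176). In HCC38 it gave 0.07 ± 0.12 (adjusted p = 0.717). The same split was seen, with 31.6, 30.8 and 30.6 CPM under DMSO and 37.4, 34.4 and 27.4 under both.

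MMP9 rose in HCC38 from 2.91, 1.86 and 2.71 to 6.12, 5.61 and 5.07 CPM (log2 change 1.14 ± 0.18, adjusted p = 0.00123), whereas HCC1937 had means of 2.06 ± 0.186 and 1.69 ± 0.209 CPM (-0.28 ± 0.17, adjusted p = 0.175). MMP9 shares 430 bases of exon with SLC12A5-AS1 on the opposite strand. Of the chromosome 11 genes, MMP1 rose in HCC38 from 0, 0.180 and 0.113 to 0.465, 0.698 and 0.498 CPM (2.46 ± 0.59, adjusted p = 0.0108), as MMP13 did, and it was not tested in HCC1937. The HCC38 DMSO libraries held only 0, 6 and 4 MMP1 counts, so the size of that rise is loosely fixed. MMP20 in HCC38 had means of 19.8 ± 0.863 and 16.3 ± 1.02 CPM (-0.31 ± 0.10, adjusted p = 0.0401), and that call was lost in 8 of 11 alternatives. MMP7 had 24.6 ± 2.23 and 24.3 ± 1.69 CPM in HCC38 (-0.05 ± 0.11, adjusted p = 0.766) and rose from 1.44 ± 0.281 to 2.57 ± 0.350 in HCC1937 (0.83 ± 0.19, adjusted p = 0.0015). MMP28 did not pass the test in HCC1937, with means of 34.9 ± 4.12 and 33.7 ± 1.83 CPM (-0.05 ± 0.08, adjusted p = 0.599). MMP11, or stromelysin 3, rose in HCC1937 from 1.61 ± 0.492 to 2.83 ± 0.491 CPM (0.83 ± 0.21, adjusted p = 0.0032). It shares 218 bases of exon with CHCHD10 on the opposite strand.

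Of the ADAMTS proteoglycanases, ADAMTS1 rose in HCC38 from 20.6, 19.1 and 22.2 to 30.5, 28.5 and 29.01 CPM (log2 change 0.48 ± 0.10, adjusted p = 0.00538) where it had fallen in HCC1395, and the difference between the responses was 1.02 ± 0.15 (adjusted p = 5.66e-06). ADAMTS5 rose in HCC38 from 0.428, 0.628 and 0.395 to 1.27, 1.13 and 1.72 CPM (1.46 ± 0.29, adjusted p = 0.0037). ADAMTS4 fell in HCC38 as in HCC1395, from 1.03, 1.23 and 1.02 to 0.269, 0.450 and 0.249 CPM (-1.76 ± 0.30, adjusted p = 0.00188), and the responses did not differ detectably (-0.11 ± 0.30, adjusted p = 0.827). In HCC1937 it did not pass the low-count filter. ADAMTS9 fell in HCC1937 from 3.29, 3.43 and 4.31 to 1.49, 1.82 and 1.83 CPM (-1.10 ± 0.17, adjusted p = 3.99e-05).

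Among the remaining ADAMTS genes, ADAMTS12, the most abundant ADAMTS gene of HCC1937 per kilobase, rose there from 54.9, 58.5 and 64.5 to 77.05, 79.7 and 72.3 CPM (log2 change 0.36 ± 0.07, adjusted p = 0.000427). ADAMTS6 rose in HCC38 from 3.88, 3.38 and 3.67 to 7.24, 7.59 and 8.80 CPM (1.08 ± 0.14, adjusted p = 0.000282) and gave -0.03 ± 0.35 (adjusted p = 0.949) in HCC1937. The procollagen N-proteinases ADAMTS2 and ADAMTS14 moved in opposite directions in HCC1937 as they had in HCC1395. ADAMTS2 went from 0.192, 0.110 and 0.229 to 1.004, 1.01 and 1.03 CPM (2.49 ± 0.33, adjusted p = 1.05e-05) and ADAMTS14 from 2.02, 1.52 and 1.64 to 0.461, 0.493 and 0.523 CPM (-1.80 ± 0.23, adjusted p = 7.65e-06). The HCC1937 DMSO libraries held only 8, 5 and 11 ADAMTS2 counts, so the size of its rise is loosely fixed. In HCC38 neither ADAMTS2 (0.52 ± 0.21) nor ADAMTS14 (0.32 ± 0.27) passed the test. ADAMTS14 was at 1.71, 1.86 and 2.14 CPM there under DMSO. Under both it was at 3.03, 2.82 and 1.41, with library C apart. ADAMTS13 rose in HCC1937 from 3.20, 2.93 and 2.85 to 6.97, 8.85 and 7.70 CPM (1.39 ± 0.13, adjusted p = 2.1e-07), and its change in HCC38 was 0.51 ± 0.24 (adjusted p = 0.128).

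**Figure D5:**
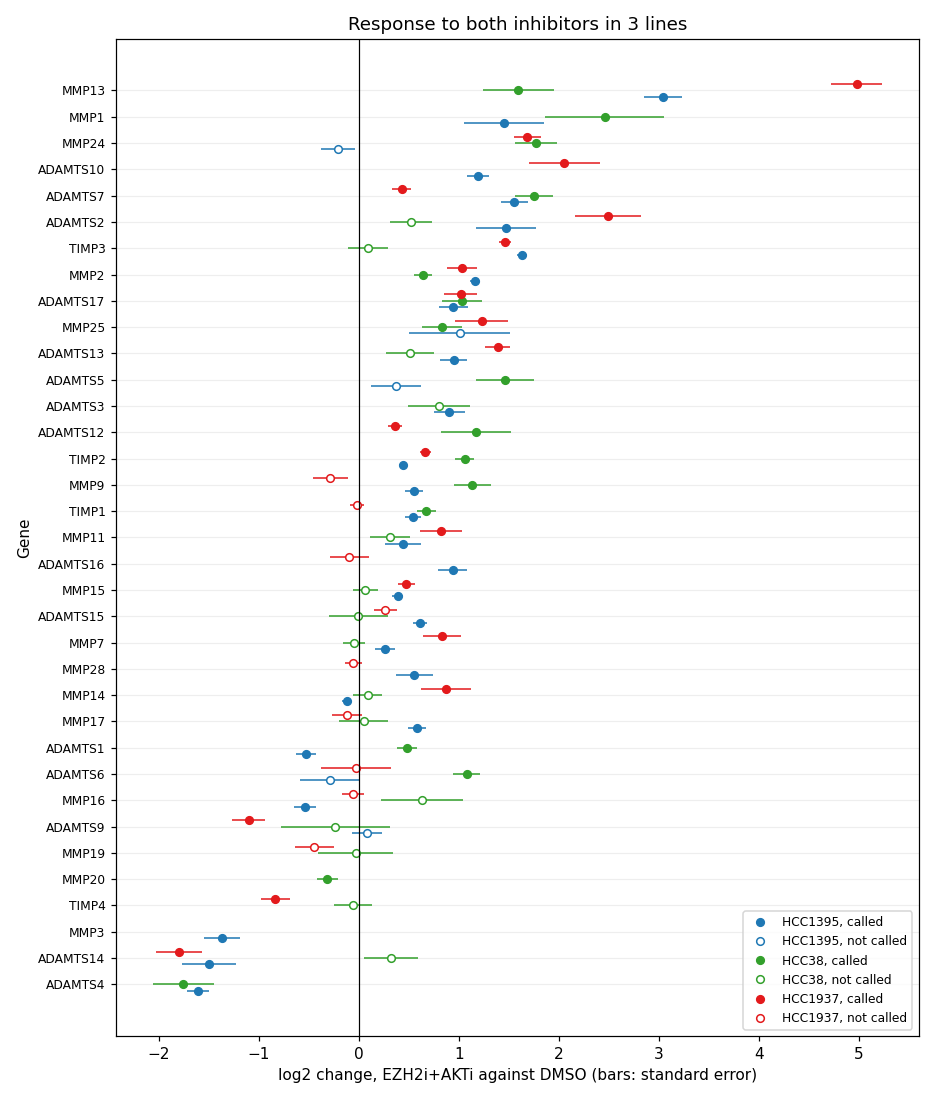
Log2 change with EZH2i+AKTi against DMSO (x axis, bars are standard errors) for each member reaching 1 CPM in a group and tested in at least 1 line (rows), in the 3 lines, with filled symbols for edgeR adjusted p under 0.05. MMP2, MMP13, TIMP2, ADAMTS7 and ADAMTS17 lay above 0 and were called in every line, TIMP3 was not called in HCC38, and MMP24 was not called in HCC1395.

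The responses of the lines were compared directly in the joint fit of 38 members. Between HCC38 and HCC1395, 10 members responded more positively and 5 less, beside 17.4% and 15.6% of all genes. Between HCC1937 and HCC1395 these were 5 and 7, beside 11.3% and 12%. Between HCC38 and HCC1937 they were 9 and 9, beside 17.7% and 14.3%. MMP13 differed in each of these comparisons, with the largest response in HCC1937 and the smallest in HCC38. Each pair of comparisons shares 1 line's libraries.

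The genes around these proteases moved in both directions. Among activators, inhibitors and receptors of proteolysis at the cell surface, 10 rose and 3 fell of 17 tested in HCC1395 under both inhibitors, 9 rose and 3 fell of 16 in HCC38 and 8 rose and 5 fell of 17 in HCC1937. In the same order of lines, the shares of all genes called were 32.5%, 16.8% and 30.5% higher and 27.4%, 14.5% and 28.8% lower. LRP1, the receptor that clears TIMP3 and several proteases from the matrix, rose in all 3 lines, by log2 changes of 0.68, 1.12 and 0.64 in HCC1395, HCC38 and HCC1937. SERPINE2, an inhibitor of plasminogen activators and thrombin, rose by 0.67, 1.20 and 0.91, to 1535 CPM in HCC1395. FURIN, which removes the propeptide of membrane-type MMPs and ADAMTS proteases, rose by 0.22, 0.43 and 0.24, and PCSK6, of the same family, by 0.20, 0.58 and 0.31. Another convertase, PCSK7, gave -0.97, -0.56 and -0.92 and fell in each line.

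A list of AP-1, ETS and RUNX factors known to act on MMP promoters also held the NF-kB subunits RELA and NFKB1. Of these factors, 9 rose and 5 fell of 16 in HCC1395 under both inhibitors (all genes: 32.5% and 27.4%). In HCC38 5 rose and 0 fell of 16 (all genes: 16.8% and 14.5%). In HCC1937 8 rose and 4 fell of 16 (all genes: 30.5% and 28.8%). In HCC38, 0 of them lay below 0 at an unadjusted p under 0.05 in edgeR. RUNX2, known to act on the MMP13 promoter in bone, rose in all 3 lines by 0.60, 0.54 and 0.86 on the log2 scale in the order HCC1395, HCC38, HCC1937. In HCC1395 RUNX2 changed by 0.25 ± 0.07 (adjusted p = 0.0135) under EZH2i alone and by 0.44 ± 0.07 (adjusted p = 4.83e-05) under AKTi alone. Its part in the changes of MMP13 was not tested. The ETS factor ETV1 rose in all 3 by 1.95, 0.58 and 1.83. The AP-1 subunit FOS rose with both inhibitors in HCC1395 (1.79 ± 0.10, adjusted p = 4.93e-12) and HCC38 (0.43 ± 0.11, adjusted p = 0.0124). Under EZH2i alone in HCC1395, a different treatment, FOSL1, another AP-1 subunit, gave -0.59 ± 0.06 (adjusted p = 6.82e-08).

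Among ADAM proteases, the membrane-bound relatives that shed cell surface proteins, 3 rose and 4 fell of 10 in HCC1395 under both inhibitors (all genes: 32.5% and 27.4%), 3 rose and 1 fell of 9 in HCC38 (all genes: 16.8% and 14.5%) and 2 rose and 5 fell of 9 in HCC1937 (all genes: 30.5% and 28.8%). ADAM15 fell in all 3 lines (-0.42, -0.66 and -0.77). ADAM12 fell in HCC1395 from 169 to 61.8 CPM (log2 change -1.46 ± 0.07, adjusted p = 4.03e-13) and rose in HCC38 (0.81 ± 0.12, adjusted p = 0.000704). Of the ADAMTS-like genes, which lack the protease domain, 1 rose and 0 fell of 4 in HCC1395 (all genes: 32.5% and 27.4%), 3 rose and 0 fell of 6 in HCC38 (all genes: 16.8% and 14.5%) and 5 rose and 0 fell of 5 in HCC1937 (all genes: 30.5% and 28.8%), and PAPLN rose in all 3 (1.39, 1.03 and 1.19). At an unadjusted p under 0.05 in edgeR, 0 of them lay below 0 in any of the 3 lines.

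Of the matrix substrates, 9 rose and 4 fell of 20 in HCC1395 under both inhibitors (all genes: 32.5% and 27.4%), 10 rose and 0 fell of 18 in HCC38 (all genes: 16.8% and 14.5%) and 4 rose and 6 fell of 14 in HCC1937 (all genes: 30.5% and 28.8%). In HCC38, 1 lay below 0 at an unadjusted p under 0.05 in edgeR. CD44, a surface receptor that docks MMPs and is itself shed, rose in all 3 lines (0.55, 0.95 and 0.44). VCAN, which encodes versican, the substrate of ADAMTS1 and ADAMTS4, fell in HCC1395 (-0.54 ± 0.10, adjusted p = 0.000164) and rose in HCC38 from 3.40 to 21.00 CPM (2.59 ± 0.15, adjusted p = 2.66e-06). ADAMTS1 likewise fell in HCC1395 and rose in HCC38, whereas ADAMTS4 fell in both. SDC1, a shed heparan sulfate proteoglycan, fell in HCC1395 (-1.56 ± 0.06, adjusted p = 7.37e-15) and HCC1937 (-0.79 ± 0.10, adjusted p = 3.73e-05), with -0.36 ± 0.14 (adjusted p = 0.0808) in HCC38.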

How the data were processed

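Raw gene counts deposited by the authors, 1 file per library with 58735 entries, were used for all 24 libraries. Per the submitters' processing notes, fastp, HISAT2 2.0.5, DESeq2 and the build hg38 were used. The read counter, its strand setting and its annotation were not given in the sources used here. Other deposited tables were not used. Genes passing filterByExpr (minimum count 10) were fitted per line, and in a joint fit of the 3 lines for differences between lines, with edgeR 4.0.16 in R 4.3.3 (TMM scaling, robust quasi-likelihood, two-sided, Benjamini-Hochberg at 0.05 over all genes tested): 18074 in HCC1395, 17100 in HCC38, 17692 in HCC1937 and 20697 jointly, with 8, 4, 4 and 16 residual degrees of freedom. Fits were tested on simulated data. Alternatives were RLE scaling, no filter, a stricter filter (1 CPM in 3 libraries), DESeq2 1.42.0, a replicate block and each library left out.

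Positions and exon lengths came from GENCODE 29 and upstream sequences from RefSeq. The members and gene lists were chosen with earlier results of these data known. By the naming rule, members of at least 1 CPM may be named. Values in every library are printed for the members the results turn on, and the others are given as mean ± SD. From the lists, members with the smallest p or called in all lines may be named; FOS, FOSL1, ADAM12, VCAN and SDC1 were chosen after their values were seen. Depth was 33469927 to 51815656 counts. No pair of libraries of a group agreed within sampling noise (chi-square per degree of freedom at least 2.56).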

Additional observations from a re-analysis of the deposited data

Results flagged for a closer look

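Members with at least 1 CPM in a group of each line compared were taken up here where the response to EZH2i+AKTi differed between 2 lines by the joint edgeR fit (adjusted p under 0.05). For comparison, 17.4% of all genes were called higher and 15.6% lower for HCC38 less HCC1395, 11.3% and 12% for HCC1937 less HCC1395, and 17.7% and 14.3% for HCC38 less HCC1937.

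Between HCC38 and HCC1395, the log2 response of HCC38 less that of HCC1395 was positive for MMP24 (2.00), ADAMTS14 (1.84), ADAMTS5 (1.11), ADAMTS1 (1.02), TIMP2 (0.64) and MMP9 (0.61), with adjusted p from 4.67e-07 to 0.0324, and negative for TIMP3 (-1.51), MMP13 (-1.43), ADAMTS2 (-0.93) and MMP2 (-0.50), with adjusted p from 1.78e-09 to 0.0462. TIMP3 and MMP24 stood at the ends of the well-counted members, TIMP3 with a rise in HCC1395 and none detected in HCC38, and MMP24 the reverse.

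Between HCC1937 and HCC1395, the log2 response of HCC1937 less that of HCC1395 was positive for MMP13 (1.93), MMP24 (1.88), MMP14 (0.98) and MMP7 (0.57), with adjusted p from 5.74e-07 to 0.0366, and negative for ADAMTS9 (-1.19), ADAMTS7 (-1.13), ADAMTS16 (-1.04), MMP9 (-0.83), MMP17 (-0.70), MMP28 (-0.61) and TIMP1 (-0.56), with adjusted p from 1.22e-05 to 0.0425. MMP14 stood at about 1 CPM in HCC1937, so its difference is between a low and a high level. MMP24 shares exon with MMP24OS, so its differences from HCC1395 in HCC38 and HCC1937 may include reads of MMP24OS, which was not tested.

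Between HCC38 and HCC1937, the log2 response of HCC38 less that of HCC1937 was positive for ADAMTS14 (2.15), MMP9 (1.44), ADAMTS7 (1.35), TIMP4 (0.81), TIMP1 (0.72) and TIMP2 (0.42), with adjusted p from 4.18e-06 to 0.0389, and negative for MMP13 (-3.35), ADAMTS2 (-1.94), TIMP3 (-1.34), MMP7 (-0.85), ADAMTS13 (-0.85), MMP14 (-0.75), MMP15 (-0.38) and MMP2 (-0.36), with adjusted p from 2.36e-08 to 0.0324. The 4 TIMP genes are all among these, with TIMP1, TIMP2 and TIMP4 on one side and TIMP3 on the other. For MMP14, MMP15 and ADAMTS14, the treated HCC38 library C lay below the DMSO libraries and A and B above. Their HCC38 responses, used in both comparisons with HCC38, are therefore loosely fixed. ADAMTS2 and MMP13 had few counts in the HCC1937 DMSO libraries, so the size of their differences is also loosely fixed.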

How the results depend on the processing

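The EZH2i+AKTi calls of MMP2, MMP13, TIMP2, ADAMTS7 and ADAMTS17 in every line, of TIMP3 in HCC1395 and HCC1937, of MMP24 in HCC38 and HCC1937 and of ADAMTS4 in HCC1395 and HCC38 held under each alternative that gave a value, and no result changed sign past the threshold. The interaction in HCC1395 gave 1 called member, but 0 with RLE scaling, 0 without the low-count filter, 0 with a replicate block and 3 with DESeq2, of which 2 were higher; leaving out a library gave 0 to 4, with 0 to 4 higher and 0 to 2 lower. The count lower in HCC38 was 2, and 1 without the filter, with the stricter filter and with the replicate block; leaving out a library gave 1 to 2 lower, and 16 to 21 called. For the response of HCC38 less HCC1395, the lower count was 5, but 3 without the filter and 3 to 6 with a library left out, and that of HCC38 less HCC1937 ran from 6 to 9. For HCC1937 less HCC1395, the higher count was 5, but 9 with the stricter filter and 8 with DESeq2. With a library left out in HCC1395, the higher count was 9 to 11 for EZH2i (12 with all), 10 to 11 for AKTi (12) and 18 to 20 for both (21). The lower counts were 4 to 5 (6 with all), 2 to 3 (3) and 5 to 6 (6). The cause was not tested.

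Replicate letters did not pair libraries consistently: deviations of same-letter libraries correlated from -0.402 to 0.224. Values above 0.1 were seen in 5 of 18 such pairs in HCC1395, 2 of 3 in HCC38 and 0 of 3 in HCC1937. The replicate block changed no other count of members by over 1.5 times. Genes below about 1 CPM rest on few counts, and changes in them may be missed at this depth.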
